A study of Homo sapiens with 4 samples.

Results

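Cancer-testis genes are transcribed in germ cells of the testis, are silent in most adult tissues and reappear in many tumours. A set of 10 that stand outside the large repeated antigen families was followed here in FaDu cells. They were chosen by name, with earlier results of these data known. The set holds the chromatin and transcription regulators BRDT, CTCFL, TFDP3 and PASD1, the tumour antigens PRAME and SAGE1, and TKTL1, PNMA5, ACTL8 and STK31. All 10 had 1 row each in a table of 25548 gene symbols. FaDu is an established squamous carcinoma line from the hypopharynx. One FaDu library came from cells given vehicle, labelled DMSO only, and 1 from cells given 5 µM 5-aza-2'-deoxycytidine (Aza) on days 1 to 3 and 100 nM trichostatin A (TSA) on day 3. The treatment protocol names DMSO as the vehicle for Aza and ethanol for TSA. Aza is a nucleoside that traps DNA methyltransferases, and TSA inhibits histone deacetylases. Both agents were given together, so their separate contributions cannot be told apart.

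Many cancer-testis genes have promoters that are methylated at CpG sites in somatic cells, and agents that lower DNA methylation are widely known to release them. Histone deacetylases add to this silencing, since they remove acetyl groups that bromodomain proteins read. Neither methylation nor acetylation was measured in these libraries. Polyadenylated RNA was sequenced, and levels are FPKM, fragments scaled by transcript length and by library size, so levels of different genes are per length. With 1 library per group there is no replicate check, and no difference below has a p-value or an error. The number of reads behind an FPKM is unknown, so no interval is given. Since these are bulk samples, few cells at a high level and many cells at a low level cannot be told apart.

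The FaDu columns sum to 491963 FPKM under DMSO and 516692 after treatment. All 8 squamous and epithelial markers examined were above 3 FPKM in both libraries, with the keratin KRT17 the highest at 1164 and 1341 FPKM. Of these 8, 3 were at least 2-fold lower, beside 5.21% of all genes at 1 FPKM or more in either library. These were KRT5 (basal keratin, 687 and 226 FPKM), TP63 (squamous transcription factor, 73.7 and 23.2) and DSG3 (desmosomal, 22.1 and 3.16). KRT14 was at least 2-fold higher at 49.8 and 147 FPKM, a log2 difference of 1.54 that was 0.78 after subtraction of a trend with GC content described below. The part of these markers in the results below was not tested. The 6 fibroblast markers summed to 0.794 and 3.66 FPKM, of which COL1A1 held 0.749 and 3.08. The 6 leukocyte markers summed to 1.74 and 5.10, of which CD14 held 1.62 and 4.59, with the pan-leukocyte gene PTPRC at 0.051 and 0.038. COL1A1 and CD14 were the only measured gene of their lists, and each was at least 2-fold higher. Their log2 differences of 1.22 and 1.09 were 0.44 and 0.43 with the GC trend subtracted. The 6 germ-cell markers summed to 0.661 and 109 FPKM, of which DAZL, an RNA-binding protein, held 0 and 79.6. MAEL, of the piRNA pathway, was at 0 and 14.5 FPKM and SYCP3, of the meiotic chromosome axis, at 0.152 and 13.9. These 3 were the measured germ-cell markers, all 3 passed 1 FPKM through the treated library only, and the median log2 difference of all 6 was 2.10. The germ-cell helicase DDX4 was at 0 and 0.424. The pluripotency factors POU5F1, at 0.493 and 0.230 FPKM, and NANOG, at 0.016 and 0, had lower values after treatment. The part of the germ-cell markers in the results below was not tested.

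The start regions of the members were compared by sequence. The promoter windows below are the 250 bases before the outermost start of each gene in RefSeq on GRCh38.p14, read on the gene's strand. They are shown because the palindrome CACGTG, an E-box bound by MYC and MAX family proteins and in capitals here, stands in 5 of the 10 windows, among them genes that differed greatly and genes that did not. It stands in 6.46% of 27305 windows of the same length, 1 per symbol. TKTL1 is printed as a member that lacks it.
BRDT: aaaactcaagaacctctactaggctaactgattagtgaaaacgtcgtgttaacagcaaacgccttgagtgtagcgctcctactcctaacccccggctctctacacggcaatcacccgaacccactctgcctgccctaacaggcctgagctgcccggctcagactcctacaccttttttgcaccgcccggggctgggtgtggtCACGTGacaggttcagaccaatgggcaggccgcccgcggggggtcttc
PNMA5: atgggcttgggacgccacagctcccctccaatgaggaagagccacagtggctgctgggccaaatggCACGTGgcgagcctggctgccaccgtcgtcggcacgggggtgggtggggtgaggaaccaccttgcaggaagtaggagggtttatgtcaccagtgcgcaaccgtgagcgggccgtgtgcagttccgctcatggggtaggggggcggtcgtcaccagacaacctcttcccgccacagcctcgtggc
TFDP3: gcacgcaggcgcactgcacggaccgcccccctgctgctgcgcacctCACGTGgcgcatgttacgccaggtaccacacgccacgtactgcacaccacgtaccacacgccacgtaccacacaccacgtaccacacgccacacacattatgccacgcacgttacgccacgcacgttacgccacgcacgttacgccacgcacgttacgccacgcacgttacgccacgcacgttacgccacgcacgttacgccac
TKTL1: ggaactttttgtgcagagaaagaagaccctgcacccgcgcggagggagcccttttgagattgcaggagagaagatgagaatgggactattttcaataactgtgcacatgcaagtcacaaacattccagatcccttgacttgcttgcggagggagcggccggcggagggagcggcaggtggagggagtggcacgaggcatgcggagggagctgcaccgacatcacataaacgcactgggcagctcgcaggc
STK31: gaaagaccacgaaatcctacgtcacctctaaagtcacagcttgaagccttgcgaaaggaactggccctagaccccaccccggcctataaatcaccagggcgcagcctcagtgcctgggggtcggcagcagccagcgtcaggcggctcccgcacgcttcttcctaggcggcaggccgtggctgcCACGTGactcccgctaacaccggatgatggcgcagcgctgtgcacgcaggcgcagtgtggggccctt
ACTL8: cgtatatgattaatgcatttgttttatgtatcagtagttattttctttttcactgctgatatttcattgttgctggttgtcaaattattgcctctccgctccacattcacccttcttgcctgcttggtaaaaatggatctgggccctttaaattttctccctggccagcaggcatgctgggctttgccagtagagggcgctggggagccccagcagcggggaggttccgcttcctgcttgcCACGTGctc
These windows lie at chr1:91949121-91949370 on the plus strand for BRDT, chrX:152994117-152994366 on the minus strand for PNMA5 and chrX:133218355-133218604 on the minus strand for TFDP3. Those of TKTL1, STK31 and ACTL8 lie on the plus strand at chrX:154295545-154295794, chr7:23709969-23710218 and chr1:17755083-17755332. Because the deposited values were made on hg19, these positions describe the sequences only.

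The first base of CACGTG lies 48 bases before the start in BRDT, 67 in STK31, 9 in ACTL8, 184 in PNMA5 and 204 in TFDP3. A match is a string of letters and not a measured binding site. On either strand, GCGGGA, a core of E2F sites, was in 3 of the 10 windows (PNMA5, SAGE1 and STK31) and in 23.4% of all windows. GGGCGG, the GC box, was in 4 (BRDT, CTCFL, PNMA5 and TFDP3) and in 42.2% of all. TGACGT, part of the cyclic AMP response element, was in STK31 alone and in 7.42% of all. GCGGGA and GGGCGG can share bases.

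CpG counts overlapped between members that differed and members that did not. The windows held from 2 CpG (CTCFL) to 36 (TFDP3), beside a median of 10 over all windows. BRDT had 14, TKTL1 13 and PNMA5 16, while SAGE1, which stayed under 1 FPKM, had 13 and STK31, which was lower after treatment, had 19. PRAME had 9, PASD1 10 and ACTL8 6. The TFDP3 window consists largely of short tandem repeats, and 95.3% of windows held fewer CpG. Where RefSeq gives a further start, the count can be quite different, as for PNMA5 with 2 CpG at its inner starts and CTCFL with 15 at its innermost.

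After treatment, 6 of the 10 genes were higher by 2-fold or more on the log2(FPKM + 1) scale and none was lower by as much, beside 8.53% and 2.76% of all 25548 genes. A gene under 1 FPKM with DMSO cannot be 2-fold lower on this scale, so only PRAME and STK31 among the members could have been. The 6 higher genes were PNMA5, TKTL1, BRDT, TFDP3, PASD1 and PRAME. The median log2 difference of the 10 members was 1.90, and that of all genes was 0. The treated value was the higher one for 8 of the 10 members and for 46.7% of all genes. Those genes include 5461 listed at 0 in both libraries, which could not be higher, while no member was at 0 in both. Over measured genes alone the median log2 difference was 0.13. Together the members held 12.6 FPKM under DMSO and 126 after treatment. PRAME made up 77.0% of the first sum, and PNMA5, PRAME and TKTL1 made up 35.5%, 26.8% and 21.3% of the second.

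**Figure D1:**
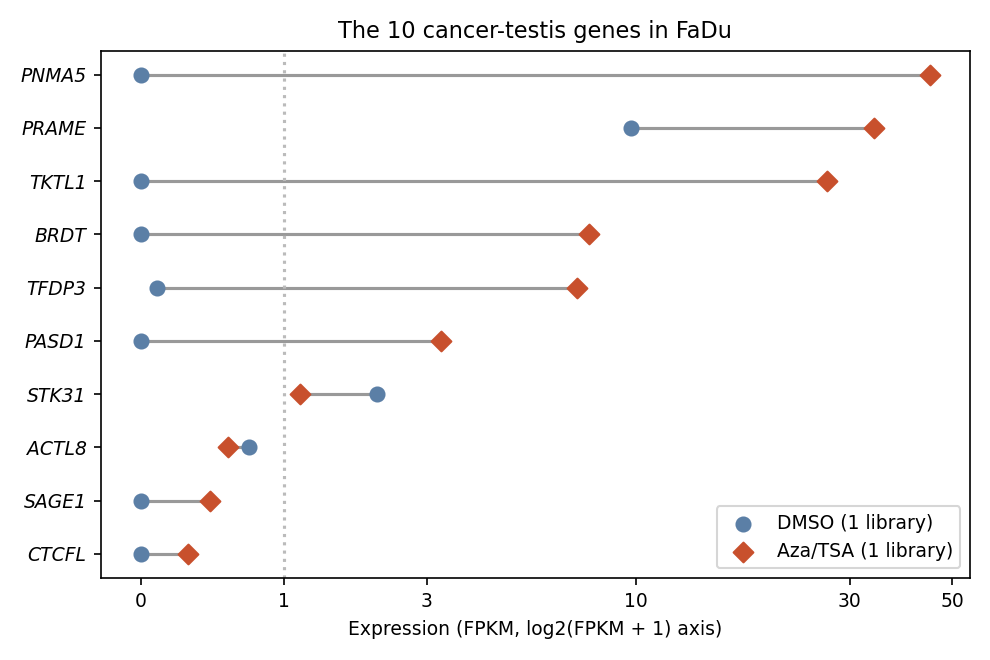
Level of each of the 10 genes in FaDu given DMSO (circles) or Aza/TSA (diamonds), in FPKM on a log2(FPKM + 1) axis, ordered by the treated level, with a dotted line at 1 FPKM. PNMA5 goes from 0 to 44.8 FPKM, while STK31 and ACTL8 are the only members whose treated value lies to the left.

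A gene is called switched on here when it was below 0.1 FPKM with DMSO and at 1 FPKM or more after treatment. Of the members, 7 were below 0.1 FPKM with DMSO and 5 of these 7 were switched on, against 5.25% of the 9984 genes under that level. A further filter, 1 FPKM or more in either library, was passed by 7 members. Of those, 5 passed through the treated library only and so had to have the higher treated value. This leaves PRAME and STK31 as members whose direction was not set by the filter. By the same filter 16.1% of 13558 genes were at least 2-fold higher and 5.21% at least 2-fold lower. The log2 difference was correlated with the GC content of the transcript across genes. With the trend on GC content subtracted, 7.56% of 11566 genes were at least 2-fold higher and 4.32% at least 2-fold lower, and the same 6 members were still higher by 2-fold or more.

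Among the regulators, BRDT is the testis member of the BET family, whose paired bromodomains bind acetylated histones and which compacts chromatin in maturing sperm. BRDT was listed at 0 FPKM under DMSO and at 7.79 after treatment, a log2 difference of 3.14. Its relatives in somatic cells were present in both libraries. BRD2 was at 84.8 and 108 FPKM and BRD3 at 16.0 and 19.0. BRDT thus stood at 41.1% of the BRD3 level and 7.23% of the BRD2 level after treatment. Of 7 BET and P-TEFb genes, 1 was at least 2-fold higher and none lower, beside 16.1% and 5.21% of all measured genes. It was CDK9, the kinase of the elongation factor P-TEFb, at 9.56 and 22.9 FPKM. Its log2 difference of 1.18 was 0.66 with the GC trend subtracted, under the 2-fold limit. The P-TEFb inhibitor HEXIM1 was at 19.9 and 28.2 FPKM, and the cyclins CCNT1 and CCNT2 at 11.0 and 10.2 and at 9.60 and 5.91.

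TFDP3 is a retrogene relative of the DP proteins, which pair with E2F factors on cell-cycle promoters, and its product is known to hold back E2F1. TFDP3 was at 0.081 FPKM under DMSO and 7.26 after treatment, a 90.0-fold ratio of the FPKM and a log2 difference of 2.94 on the log2(FPKM + 1) scale. The denominator of that ratio lies just under the limit of 0.1 FPKM for a silent gene. Its parent TFDP1 was at 85.7 and 67.5 FPKM and TFDP2 at 5.51 and 3.27, so that TFDP3 went from 0.0942% to 10.8% of the TFDP1 level. No stretch of 50 bases of its longest transcript is found in a transcript of another gene in GENCODE release 29. Of 10 E2F and DP genes 1 was at least 2-fold higher and none lower, beside 16.1% and 5.21% of all measured genes. E2F1 was at 4.82 FPKM under DMSO and 13.5 after treatment, and its log2 difference of 1.32 was 0.48 with the GC trend subtracted, under the 2-fold limit. E2F5 was at 5.18 and 2.48, E2F4 at 35.2 and 64.5, and E2F2 at 1.66 and 3.42.

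PASD1 encodes a nuclear protein related to the clock factor CLOCK and is known to dampen the CLOCK and BMAL1 pair. PASD1 was listed at 0 FPKM under DMSO and at 3.28 after treatment, a log2 difference of 2.10, which fell under the 2-fold limit at 0.73 with a pseudocount of 5 FPKM. CLOCK itself was at 5.52 and 4.06 FPKM. Of 11 measured clock genes, out of 12, 2 were at least 2-fold higher, beside 16.1% of all measured genes. They were PER1 at 2.11 and 6.39 FPKM and NR1D1, a repressor of BMAL1, at 3.18 and 11.4. With the GC trend subtracted their log2 differences of 1.25 and 1.57 were 0.41 and 0.85, and neither passed 2-fold, while DBP at 3.31 and 1.70 FPKM was then lower by 2-fold or more at -1.33. Without that subtraction none was lower by 2-fold, with NR1D2 at 20.4 and 10.2 and CRY2 at 1.83 and 4.21 the next widest. A stretch covering 11.2% of the longest PASD1 transcript is shared with AF274854.1, a pseudogene that overlaps it on the same strand. That pseudogene has no value of its own here, and whether it affected the PASD1 level is unknown.

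CTCFL, also called BORIS, is the germline paralogue of the insulator protein CTCF and shares its zinc fingers. CTCFL was listed at 0 FPKM under DMSO and at 0.256 after treatment, and did not reach the 1 FPKM at which a gene counts as measured. CTCF was at 35.8 and 30.2 FPKM, so CTCFL stood at 0.849% of it after treatment. Of the 7788 genes listed at 0 under DMSO 25.1% were above 0 but under 1 FPKM after treatment. Of 6 genes reported as CTCFL targets, 5 were under 0.1 FPKM with DMSO and 2 of these were switched on, beside 5.25% of all genes under that level. They were the antigen genes MAGEA1 at 0.040 and 4.91 FPKM and CTAG1B at 0 and 9.65. CTAG1A was listed at the same 9.65 FPKM after treatment, so the CTAG1B value may not be its own alone. PRSS50 at 0 and 0.469, GAL3ST1 at 0 and 0.563 and TERT at 0.031 and 0.066 stayed under 1 FPKM, and BAG1 was at 2.65 and 4.38. Of 8 measured CTCF and cohesin genes, out of 9, 1 was at least 2-fold higher, beside 16.1% of all measured genes. It was the meiotic subunit REC8 at 1.53 and 11.3 FPKM, which was still higher by 2-fold with the GC trend subtracted. The meiotic STAG3 was at 0.212 and 1.28, SMC1B at 0.206 and 0.132, and the somatic STAG2 and SMC3 at 56.3 and 37.2 and at 52.1 and 41.9.

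**Figure D2:**
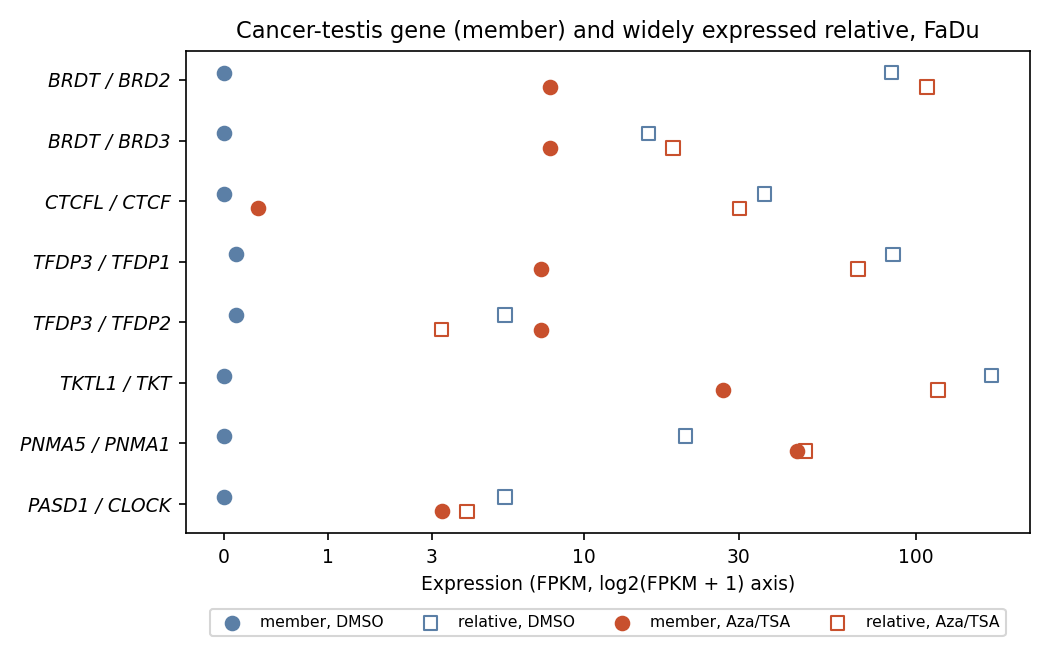
Level of a cancer-testis gene (filled circles) and of a widely expressed relative (open squares) in FaDu given DMSO (blue) or Aza/TSA (orange), in FPKM on a log2(FPKM + 1) axis, 1 pair per line. After treatment PNMA5 reaches 94.5% of PNMA1 and TFDP3 passes TFDP2, while CTCFL remains at 0.849% of CTCF.

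PRAME, a melanoma antigen, is a leucine-rich repeat protein that serves as the substrate receptor of a CUL2 ubiquitin ligase and is known to restrain retinoic acid receptors through EZH2. It was the member with the highest level before treatment, at 9.74 FPKM, above 77.2% of genes, and it was at 33.8 FPKM after treatment. That is a 3.47-fold ratio, and the log2 difference of 1.70 was 1.28 after the trend with GC content was subtracted. All 16 PRAMEF genes, the clustered relatives of PRAME, were listed at 0 in both libraries, and the longest PRAME transcript shares no stretch of 50 bases with another gene. An antisense gene overlaps PRAME on the opposite strand, and whether the authors counted by strand is not given in the sources used here. Among the CUL2 ligase parts and EZH2 none was at least 2-fold higher. CUL2 was at 12.8 and 8.41 FPKM, the elongins TCEB1 and TCEB2 at 36.0 and 41.9 and at 101 and 186, and EZH2 at 27.5 and 18.9. In this list of 10 genes RARA, a retinoic acid receptor, was at least 2-fold higher, at 4.98 and 13.5 FPKM, and none was lower, with RARB at 0.892 and 1.39, RARG at 31.6 and 62.1 and their partner RXRA at 20.4 and 35.7. The log2 difference of RARA, 1.28, was 0.43 with the GC trend subtracted. Of 10 retinoid response genes 5 were at least 2-fold higher and none lower, beside 16.1% and 5.21% of all measured genes, and 2 of the 5 passed 1 FPKM through the treated library only. They included the transglutaminase TGM2 at 3.39 and 21.6 FPKM, CRABP2, which carries retinoic acid, at 4.46 and 22.4, and CYP26B1, which degrades it, at 1.78 and 6.21. With the GC trend subtracted 3 of the 10 were higher and 1 was lower, beside 7.56% and 4.32% of all genes. CYP26B1 at 0.77 and the vitamin A receptor STRA6 at 0.54 were then under the 2-fold limit, and RARRES3, at 6.91 and 4.15 FPKM, was the lower one at -1.07.

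SAGE1, a sarcoma antigen encoded on the X chromosome, is known to bind INTS3 of the Integrator complex. SAGE1 was listed at 0 FPKM under DMSO and at 0.398 after treatment. Among 12 Integrator genes with a row none was at least 2-fold higher or lower, and INTS3 was at 17.0 and 17.6 FPKM. The widest differences there were INTS1 at 7.62 and 15.9 FPKM, the nuclease CPSF3L at 11.4 and 21.4, INTS5 at 1.80 and 3.86 and INTS2 at 8.11 and 4.76.

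TKTL1 and PNMA5 reached the highest levels of the members that were silent before treatment. TKTL1 is a relative of transketolase, the enzyme of the non-oxidative pentose phosphate pathway, and lacks a stretch of its cofactor-binding part. TKTL1 was listed at 0 FPKM under DMSO and at 26.8 after treatment, a log2 difference of 4.80, and stood at 23.2% of TKT. TKT was at 166 and 116 FPKM and TKTL2 at 0 and 0.069. Of 7 measured genes in the pentose phosphate list none was at least 2-fold higher or lower, with PGD at 61.3 and 38.7 FPKM, RPE at 28.9 and 20.0 and PGLS at 16.8 and 12.6. With the GC trend subtracted 3 of the 7 were at least 2-fold lower, TKT at -1.08, PGLS at -1.19 and PGD at -1.03, beside 4.32% of all genes. The longest TKTL1 transcript shares 6.32% of its bases with TEX28, a testis gene that overlaps it on the opposite strand and was listed at 0 in both libraries.

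PNMA5 belongs to a family of Gag-like proteins that arose from retrotransposons and includes antigens of paraneoplastic disease. PNMA5 was listed at 0 FPKM under DMSO and at 44.8 after treatment, the widest log2 difference of the 10 at 5.52. PNMA1, which was at 20.8 and 47.4 FPKM, was the single other family member at least 2-fold higher among 3 measured, and its log2 difference of 1.15 was 0.72 with the GC trend subtracted. MOAP1 was at 32.7 and 42.1 FPKM and ZCCHC12 at 0.120 and 1.19. The other relatives stayed under 1 FPKM in both libraries, with CCDC8 at 0 and 0.647, PNMAL2 at 0 and 0.277, PNMAL1 at 0 and 0.054, PNMA3 at 0 and 0.017, PNMA2 at 0.038 in each, PNMA6A at 0.101 and 0.121 and ZCCHC18 at 0 and 0.021. Of the relatives listed at 0 under DMSO, none reached 1 FPKM.

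**Figure D3:**
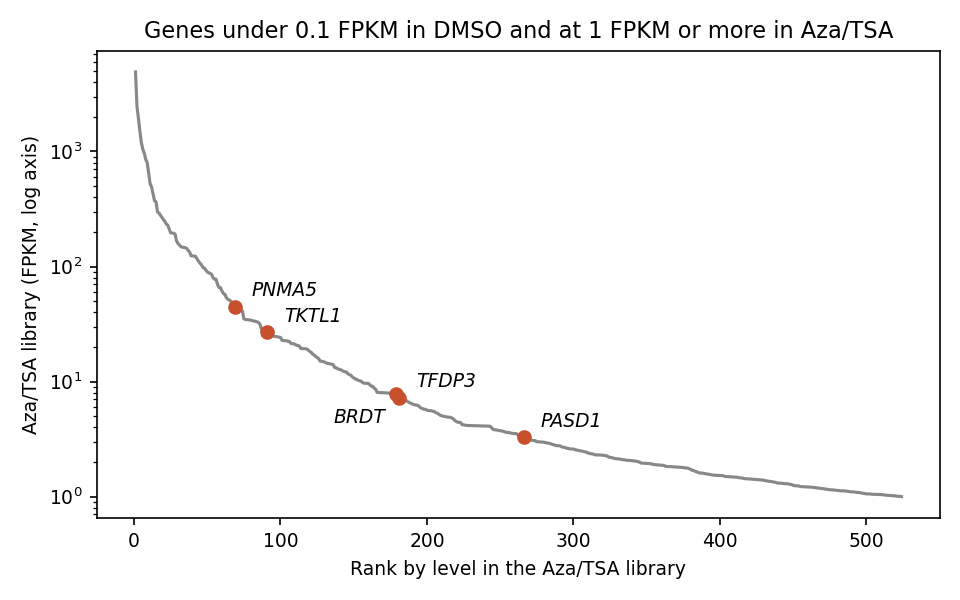
Level in the Aza/TSA library (FPKM, log axis) of the 524 genes below 0.1 FPKM with DMSO and at 1 FPKM or more after treatment, in order of rank, with the 5 members among them marked. PNMA5 is at rank 69, TKTL1 at 91, BRDT at 179, TFDP3 at 181 and PASD1 at 266. Most entries above PNMA5 are short RNAs, such as SNORD2 at 4903 FPKM, so it stands nearer the top among longer transcripts. Some copies, such as RN5S1 and RN5S2, have the same value and share a rank.

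STK31 and ACTL8 had lower values after treatment, by less than 2-fold on the log2(FPKM + 1) scale. STK31 is a germ-cell protein with a tudor domain, which binds methylated arginine, and a kinase-like domain. STK31 was at 2.14 FPKM under DMSO and 1.17 after treatment, a log2 difference of -0.54 that was -0.23 with the GC trend subtracted. It was the only member besides PRAME at 1 FPKM or more before treatment. Among 10 measured tudor genes, 4 were at least 2-fold higher, beside 16.1% of all measured genes. All 4 passed the filter of 1 FPKM through the treated library only and so had to have the higher treated value. They were TDRD12 at 0 and 4.59 FPKM, TDRD9 at 0.013 and 3.54, TDRD1 at 0 and 2.83 and TDRD6 at 0.014 and 1.82. These 4 take part in the piRNA pathway or germ granules. TDRD5 was at least 2-fold lower at 11.0 and 4.75 FPKM, and the widely expressed SND1 was at 34.6 and 40.6.

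ACTL8 is an actin-like protein of testis. ACTL8 was at 0.690 FPKM under DMSO and 0.527 after treatment, a log2 difference of -0.15. With the GC trend subtracted it was -0.74, but that trend was fitted on genes at 5 FPKM or above. The same subtraction gave -0.97 for ACTL9, which was listed at 0 in both libraries, so -0.74 cannot be read as a change of ACTL8. The testis genes ACTL7A, ACTL7B, ACTL9, ACTRT1 and ACTRT2 and the neuronal ACTL6B were listed at 0 in both libraries. Of 8 measured actin relatives 1 was at least 2-fold higher and none lower, beside 16.1% and 5.21% of all measured genes. It was ACTB, the cytoplasmic beta-actin, at 641 and 1529 FPKM. The log2 difference of ACTB, 1.25, was 0.73 with the GC trend subtracted. ACTG1 was at 1344 and 2612 FPKM, the remodeller subunit ACTL6A at 92.0 and 75.3, and ACTR2 at 92.4 and 53.9.

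The treated levels spanned a wide range. PNMA5 (44.8 FPKM), PRAME (33.8) and TKTL1 (26.8) were above 93.1%, 90.8% and 88.7% of all genes after treatment. BRDT (7.79), TFDP3 (7.26) and PASD1 (3.28) were above 72.2%, 71.3% and 60.7%, and STK31 (1.17), ACTL8 (0.527), SAGE1 (0.398) and CTCFL (0.256) above 50.4%, 43.9%, 41.7% and 38.4%. Whether neighbours in this order differ cannot be said without replicates.

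**Figure D4:**
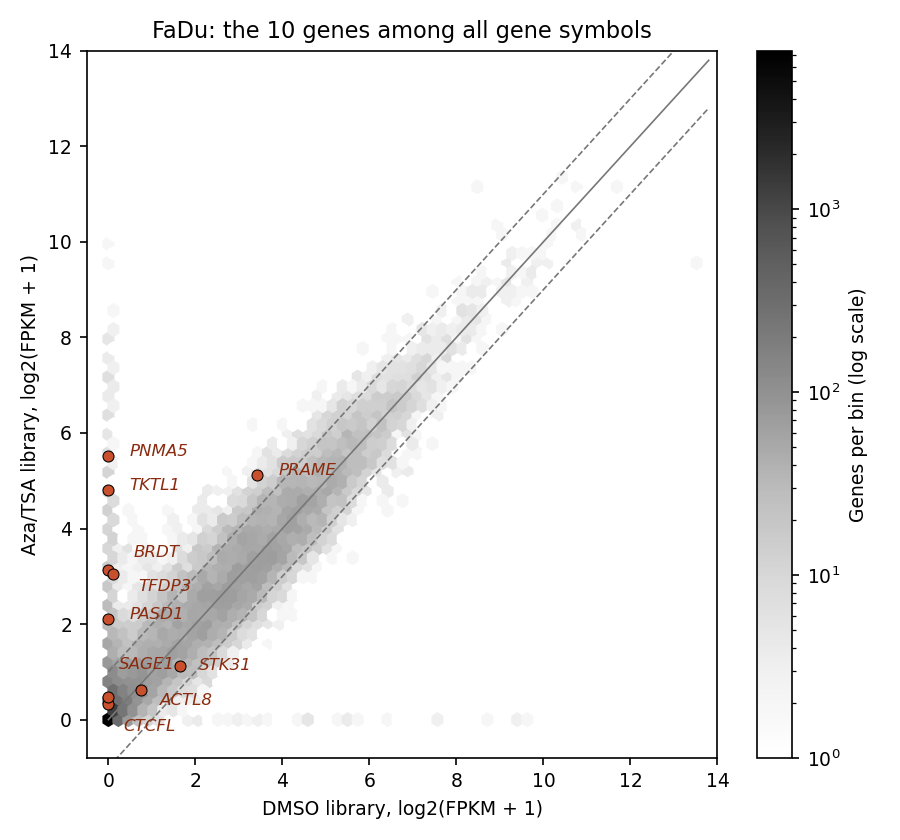
All 25548 gene symbols in FaDu (grey bins, darker with more genes on a log scale), DMSO library on the x axis and Aza/TSA library on the y axis, both log2(FPKM + 1), with the 10 members as orange points, a solid line of equality and dashed lines at a 2-fold difference. The 6 members called higher lie above the upper dashed line, 5 of them at or near 0 on the x axis, and PRAME is the one that starts from a substantial level.

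The members lie on 5 chromosomes. The windows of SAGE1, PASD1, TFDP3, TKTL1 and PNMA5 lie on the X chromosome. All 5 were below 0.1 FPKM with DMSO and 4 were switched on. Of the 5 autosomal members BRDT and CTCFL were under 0.1 FPKM and BRDT was switched on, while PRAME, STK31 and ACTL8 were already at 0.690 FPKM or more. Over all genes with a window and below 0.1 FPKM with DMSO, 59 of 255 on the X chromosome (23.1%) and 186 of 3882 on other chromosomes (4.79%) were switched on. The X-linked genes include the large antigen families, whose copies share sequence. Of the genes under 0.1 FPKM with CACGTG in the window 9.46% of 222 were switched on, and 5.72% of 3915 without it. The 222 include BRDT, PNMA5 and TFDP3, all switched on, so this comparison is not independent of the members.

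By the distance of log2(FPKM + 1) over the 2 libraries, the genes most like PNMA5 were SNORA38B, GTSF1 and MIR637, all listed at 0 and then at 45.4, 44.1 and 44.0 FPKM. GTSF1 is a factor of the piRNA pathway, and the other two are short RNAs. Most like TKTL1 were the cancer-testis genes SSX3, CT45A3 and CT45A1, listed at 0 and then at 26.9, 27.2 and 27.5 FPKM. Most like PRAME were UNC13D at 9.38 and 34.0 FPKM, ATF5 at 9.24 and 33.8 and QSOX1 at 10.1 and 35.4. With 2 libraries such likeness is loose, since 10 genes lay within 0.25 of PNMA5, 19 of TKTL1 and 25 of PRAME.

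For comparison, 40 other cancer-testis genes outside the repeated families were listed. Of these, 6 were at least 2-fold higher and none lower, among 15 measured, and the median log2 difference over all 40 was 0.17. Of all measured genes 16.1% were higher by as much. DDX43, TAF7L, DDX53 and PLAC1 passed the filter through the treated library only, which leaves LY6K and HORMAD1 as higher genes whose direction was not set by it. LUZP4 at 0.195 and 1.33 FPKM and TEX14 at 0.155 and 1.09 passed in the same way and did not reach 2-fold. With the GC trend subtracted 7 of the 15 were higher and none was lower, beside 7.56% and 4.32% of all genes. LUZP4 was then among the higher ones at 1.31, but it lies below the levels on which that trend was fitted. The surface protein gene LY6K was at 2.16 FPKM under DMSO and 15.1 after treatment, the RNA helicase DDX43 at 0.215 and 3.85, the transcription factor subunit TAF7L at 0.240 and 2.91, and DDX53 at 0 and 2.14. HORMAD1, of the meiotic chromosome axis, was at 1.14 and 4.78 and the placental PLAC1 at 0.323 and 2.46. Of the 21 below 0.1 FPKM with DMSO, 1 (DDX53) was switched on, beside 5.25% of all genes under that level. Another 9 were listed at 0 in both. Both lists were chosen with results of these libraries known, and no test of the difference between them was made.

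**Figure D5:**
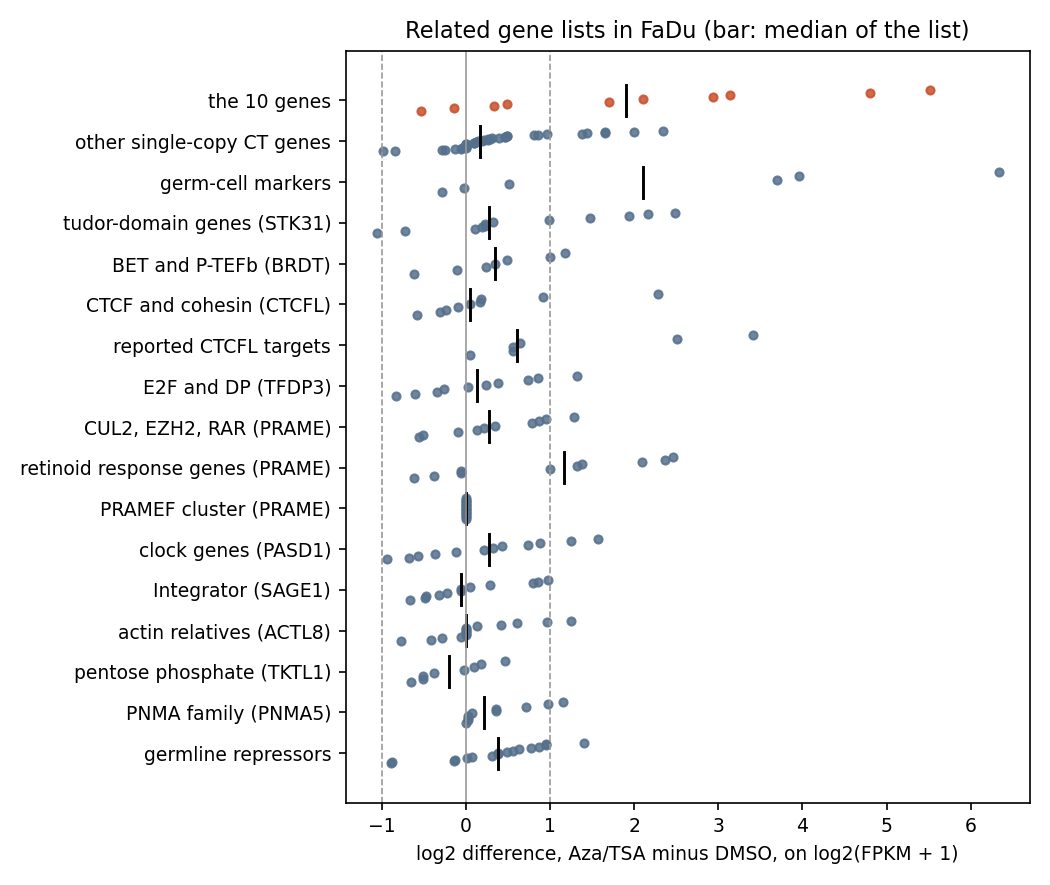
log2 difference between the Aza/TSA and DMSO libraries of FaDu, on log2(FPKM + 1), for each gene of the members and of 16 related lists, 1 point per gene, with a black bar at the median of each list and dashed lines at a 2-fold difference. The germ-cell markers have a median of 2.10, the members 1.90 and the retinoid response genes 1.16, and the other lists plotted lie below 1.

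The direct targets of the agents and the repressors of germline genes were expressed throughout. DNMT1, the maintenance methyltransferase, was at 25.6 and 43.5 FPKM, DNMT3A at 3.18 and 4.01 and DNMT3B at 4.66 and 9.32, and none of the 8 methyltransferases and deacetylases in the list was at least 2-fold higher or lower. Of 17 repressors reported at germline genes, 1 was at least 2-fold higher and none lower, beside 16.1% and 5.21% of all measured genes. It was MBD3 of the NuRD complex at 7.91 and 22.6 FPKM. Its log2 difference of 1.41 was 0.57 with the GC trend subtracted, under the 2-fold limit. UHRF1, which guides DNMT1, was at 11.8 and 23.9, TRIM28 at 27.1 and 53.2, MBD2 at 13.9 and 6.99, and ZBTB33 at 21.2 and 11.1. MGA and MAX, which bind CACGTG in a repressor of germline genes, were at 5.69 and 5.77 and at 37.7 and 34.1 FPKM.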

How the data were processed

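RNA of FaDu cells was sequenced with a stranded poly(A) kit, per the labels' protocols, from 1 library per group, and groups came from the labels. The authors deposited 1 table of FPKM per gene symbol, per the file headers. TopHat 1.3.2, Cufflinks 2.0.2 and hg19 are named in the submitters' processing notes. Annotation, filters and any scaling were not given in the sources. The 2 UMSCC47 columns were not used. Repeated rows (45) were summed.

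Differences were log2((treated FPKM + 1)/(DMSO FPKM + 1)), which understates changes at low levels, and calls were made at 2-fold. No test was possible with 1 library per group. GC content came from the longest GENCODE release 29 transcript per symbol (20234 genes matched, all 10 members among them), and its trend was fitted by lowess (fraction 0.3, statsmodels 0.14.6) over the 6642 genes with both values at 5 FPKM or above. The log2 difference and GC content had a Spearman correlation of 0.67 across those genes, which are not replicates. The trend was subtracted in full from genes below 5 FPKM as well, where the pseudocount has already shrunk the difference. Corrected values of genes near 0 are therefore not reliable. Shared sequence was searched with BLAST 2.17.0 for exact matches of 50 bases or more. Promoters came from RefSeq (GRCh38.p14, all 10 members matched), 1 outermost start per symbol. Scripts were tested on simulated data.

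The genes named are the members, each relative of a member and up to 4 other genes of each related list with the widest difference, the 3 nearest genes of the 3 highest members, and 3 methyltransferases. Further genes were named after their values were seen, and a few that the rule names are not reported here. The members and lists were chosen with earlier results of these data known. Alternatives changed the pseudocount, filter, scaling, repeated rows, silent and on limits, and GC correction.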

Additional observations from a re-analysis of the deposited data

How the results depend on the processing

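Of the 10 members, 8 had the higher value in the treated library under each of 6 alternatives, and STK31 and ACTL8 the lower value. These alternatives changed the pseudocount, scaling, repeated rows and GC trend, and much of the outcome was fixed in advance. A pseudocount cannot change which value is higher, and the choice of row could not act on members with 1 row each. Scaling could not change it for the 6 members listed at 0 under DMSO. The GC trend could, with the limit at low levels given above. The count at least 2-fold higher was 6 in the main setting and 5 or 6 under 8 alternatives. PASD1 left the count with a pseudocount of 5 FPKM and with the filter raised to 5 FPKM. The count switched on was 5, and 4 with TPM scaling or silence at exactly 0, where TFDP3 left, and 4 with a limit of 5 FPKM for on, where PASD1 left. The median log2 difference of the members was 1.90, and it was 3.70 and 1.00 with pseudocounts of 0.1 and 5 FPKM, 2.28 with TPM scaling, 1.92 with scaling to housekeeping genes and 1.66 after the GC trend was subtracted. The share of all measured genes at least 2-fold higher was 16.1%, and 21.7% and 6.59% with those pseudocounts and 7.56% after GC subtraction. In the related lists 32 genes were at least 2-fold higher, 44 with a pseudocount of 0.1 FPKM, 41 with TPM scaling and 20 with the GC trend subtracted, which was chosen for these lists after seeing the data. The number lower was 4, and 9 with the GC trend subtracted. Depth is unknown, so the levels of CTCFL, SAGE1 and ACTL8 and the TFDP3 ratio may rest on few reads. No paired analysis was possible because each group has 1 library.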
